A study of Mus musculus with 6 samples.

Results

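Marker genes of bone cells that are embedding in matrix, or of the osteocyte lineage, were followed in IDG-SW3 cells treated with parathyroid hormone (PTH). They were Pdpn, Cd44, Capg, Irx5, Irx3, Ptprz1, Npy, Cst3 and Fbln7, found by their gene symbols, and they make up 9 of the 23700 gene entries listed for each library. IDG-SW3 is a mouse line from long bones, conditionally immortalized by a temperature-sensitive T-antigen and carrying GFP under the Dmp1 promoter, so GFP reports Dmp1-expressing cells and the line stands for 1 cell source. All cultures of both groups were kept to day 28 in medium that held 4 mM β-glycerophosphate and 50 µg/ml ascorbic acid. In 1 set 50 nM bovine PTH(1-34) was then present for 24 hours (PTH, n = 3), while the other set received PBS (Control, n = 3). Expression is given as FPKM, in which the fragments of a gene are divided by its transcript length in kilobases and by the mapped fragments of the library, so levels of different genes can be set side by side.

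As osteoblasts become buried they extend dendrites into the matrix and turn into osteocytes. Podoplanin (Pdpn, also E11/gp38) is a membrane glycoprotein of cells at this embedding stage. Cd44 encodes a hyaluronan receptor that binds podoplanin, and Capg encodes an actin-capping protein of the gelsolin family, and both have been used as markers of embedding cells. Irx3 and Irx5 encode homeodomain transcription factors of the Iroquois family. Ptprz1 encodes a receptor protein tyrosine phosphatase that binds pleiotrophin, Npy a secreted neuropeptide, Cst3 the cysteine protease inhibitor cystatin C, and Fbln7 a fibulin of the extracellular matrix. PTH acts on cells of this lineage through its receptor and raises cyclic AMP.

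The 250 bases before the RefSeq start (build GRCm38.p6) are shown for the genes with the largest rise and the largest fall among the 9, with CG dinucleotides in capitals. The Pdpn stretch, chr4:143299565-143299814 on the minus strand, holds 2 CG dinucleotides and is 43.2% G or C. The Ptprz1 stretch, chr6:22875252-22875501 on the plus strand, holds 22 and is 71.6% G or C.
Pdpn: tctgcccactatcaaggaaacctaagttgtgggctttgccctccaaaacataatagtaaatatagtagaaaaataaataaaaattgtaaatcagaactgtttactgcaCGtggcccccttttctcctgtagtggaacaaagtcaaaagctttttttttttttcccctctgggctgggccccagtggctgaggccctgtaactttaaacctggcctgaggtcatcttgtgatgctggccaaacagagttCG
Ptprz1: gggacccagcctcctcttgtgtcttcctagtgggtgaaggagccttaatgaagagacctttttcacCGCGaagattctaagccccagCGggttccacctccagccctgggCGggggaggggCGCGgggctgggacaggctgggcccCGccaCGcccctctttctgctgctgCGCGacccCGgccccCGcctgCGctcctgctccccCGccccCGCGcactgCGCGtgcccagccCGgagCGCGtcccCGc
Over all 32851 RefSeq windows of this length the median was 6 CG dinucleotides (quartiles 2 and 16) and 52.4% G or C, so these genes lay on opposite sides of the middle. A window was found for 8 of the 9 genes. The other 6 counted 5 CG dinucleotides for Cd44, 7 for Capg, 8 for Cst3, 13 for Irx3, 14 for Fbln7 and 21 for Npy. Low and high counts occurred among genes that rose and among genes that fell.

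Motifs were searched on both strands from 250 bases before to 50 bases after the start. The cAMP response element TGACGTCA, present in 1.79% of all windows, and the AP-1 motif TGANTCA, present in 7.81%, were found in none of the 8 windows. The shorter TGACG, which the full element contains and which 20.8% of all windows hold, was found in 1 of the 8, in Pdpn, on the gene's strand at bases 29 to 33 after the start. A match of letters is a description of the window and shows no binding.

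The fragments implied by the authors' bounds on FPKM differed between the groups. Summed over entries with an estimate, the lowest and highest totals per library were 13958212 and 19043743 for Control, against 22479949 and 24481478 for PTH. Each Control library also had 2 entries with the status HIDATA (too many fragments to estimate), and each PTH library had 0. The totals leave such entries out and are not full library depths. The median half-width of the bounds was 8.26% to 9.68% of the FPKM in Control and 7.04% to 7.33% in PTH. The part of the difference in implied fragments in the changes reported here was not tested. The reference genes rose, Actb from 747.6 ± 25.7 FPKM (SD, n = 3) to 1078 ± 25.2 and Gapdh from 463.6 ± 42.6 to 796.6 ± 34.6. Nothing in the labels states that replicate wells were independent cultures, and the p-values therefore reflect only the spread among these 6 samples, which may be technical.

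All 9 osteoblast and osteocyte markers were expressed in Control, where Runx2 had the lowest mean at 34.3 FPKM. Their summed FPKM was 28470 to 29052 in Control and 5300 to 6188 with PTH. With PTH Bglap (3870 FPKM), Ibsp (1100), Alpl (796.4), Runx2 (31.0), Sp7 (30.7) and Phex (7.51) remained. Dmp1 (3.64), Mepe (1.61) and Sost (0.0941) were then low. Several of the 9 genes studied are also expressed by other cells, and markers of those cells were low. All 9 endothelial markers were below 1 FPKM in every library, with Cdh5 and Tie1 listed at 0, which bears on Pdpn, a gene of lymphatic endothelium. Of 11 leukocyte markers 8 were below 1 FPKM in every library and Emr1, Tyrobp and Cd3e were listed at 0, which bears on Capg, Cd44 and Cst3, genes of macrophages. The leukocyte sum was 13.5 to 14.5 FPKM in Control, most of it Lyz2 (11.3), and 10.5 to 11.0 in PTH. Lyz2 was at 4.36 FPKM with PTH, while Cd68 rose from 1.02 to 2.20 and Cd14 from 1.36 to 4.01. Of 10 markers of neurons and glia, which express Ptprz1 and Npy, 9 were below 1 FPKM in every library, with Rbfox3, Olig2 and Sox10 listed at 0, and the sum was 3.25 to 3.63 in Control and 1.29 to 1.49 in PTH. Adipocyte markers were present in Control, with a sum of 486.1 to 706.7 FPKM against 67.8 to 142.8 in PTH. Of these 7 of 7 tested fell, against 23.5% of all tested entries. Chondrocyte markers summed to 328.6 to 341.3 FPKM in Control and 230.5 to 239.3 in PTH, most of it Col11a1. There 5 of 6 tested fell, against the same 23.5%, while Sox9 rose. Skeletal muscle markers summed to 29.2 to 30.4 FPKM and 22.6 to 23.2, with Myod1 listed at 0. The part of the adipocyte, chondrocyte and muscle markers in the changes of the 9 genes was not tested.

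Of the 9 marker genes 8 had a mean of at least 1 FPKM over the 6 libraries and were tested, and Npy was not. All 8 were called at an adjusted p below 0.05 (limma, Benjamini-Hochberg over 11894 entries), where 73.9% of all tested entries were called. With PTH 4 were higher (Pdpn, Capg, Irx3 and Fbln7; background 50.4%) and 4 were lower (Cd44, Irx5, Ptprz1 and Cst3; background 23.5%). The groups did not overlap for any of the 8, as for 78.3% of all tested entries, so being called or separated sets these genes little apart from others. A change of at least 2-fold on the log2(FPKM + 1) scale was reached by 3, Pdpn upward and Irx5 and Ptprz1 downward, against 9.24% of all tested entries (4.41% higher and 4.83% lower). The median change of all tested entries was 0.15, and under 4 other scalings of the libraries it was 0.025 to 0.084. All 8 genes kept their direction and their call under those scalings. In RNA from whole wells, fewer cells of a type and less RNA per cell cannot be told apart.

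**Figure D1:**
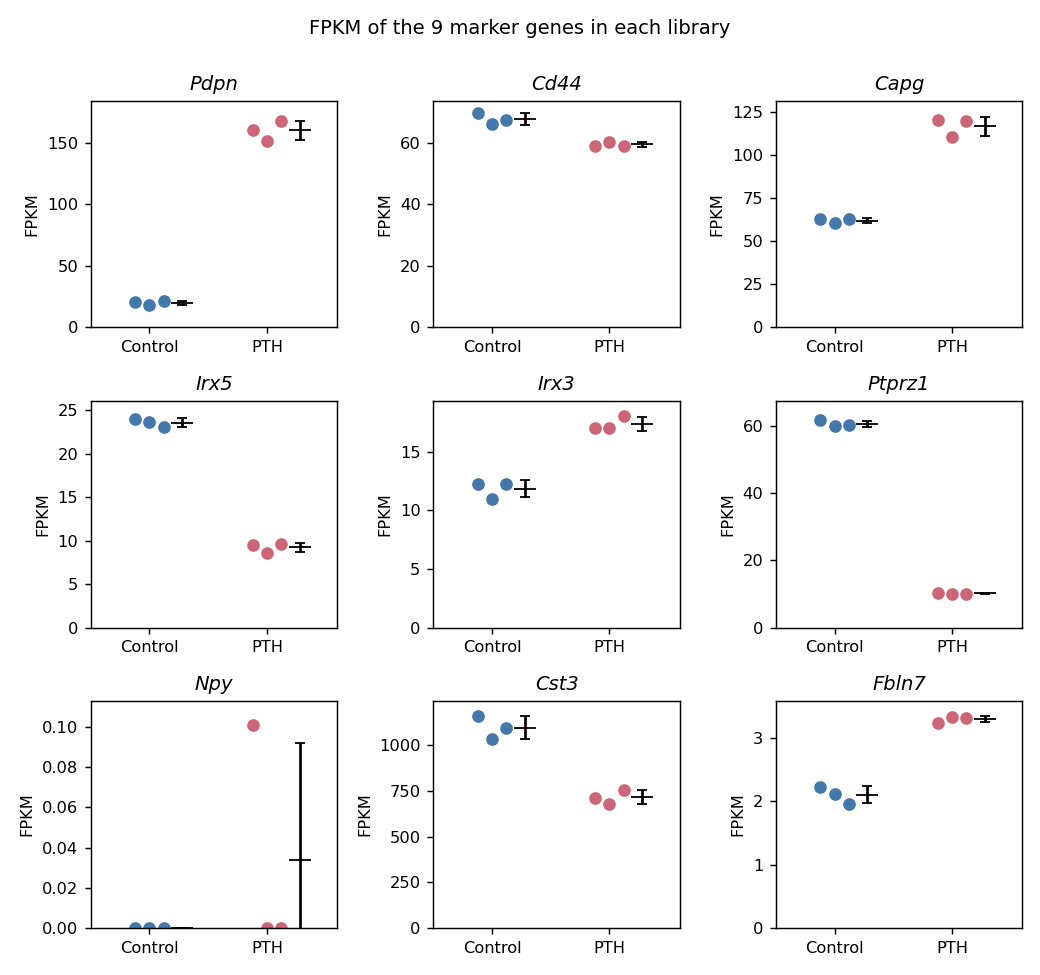
FPKM of each of the 9 marker genes (y axis, linear and starting at 0) in the 3 Control and 3 PTH libraries. Points are libraries and the black bars are the group mean ± SD. For 8 genes the groups do not overlap, and for Npy 5 of the 6 libraries are listed at 0.

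Among markers of embedding cells, Pdpn had the largest change of the 9 genes, a rise, Capg rose less, and Cd44 fell slightly. Pdpn (mm9, chromosome 4, 142857325 to 142889410) had 20.9, 18.1 and 21.1 FPKM in Control and 160.2, 151.8 and 167.9 with PTH. Every PTH library stood far above every Control library, and within each group replicate 2 was the lowest. The mean went from 20.01 ± 1.68 to 160.0 ± 8.08 FPKM (SD, n = 3), a ratio of 7.99 and a log2 change of 2.94 (SE 0.067, 95% interval 2.78 to 3.10, limma adjusted p = 1.42e-07). The values rest on 2173 implied fragments in Control and 22609 in PTH. Of the other members only Ptprz1 changed by a comparable amount, in the other direction.

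Capg, on chromosome 6 from 72494433 to 72512974, had 62.6, 60.5 and 62.9 FPKM in Control and 120.1, 110.4 and 119.7 with PTH. All treated libraries were higher than all untreated ones and the Control values lay close together. The mean rose from 62.0 ± 1.29 to 116.7 ± 5.54 FPKM, a ratio of 1.88 (log2 change 0.90, 95% interval 0.80 to 1.00, limma adjusted p = 3.26e-06). The file gives 2 start sites for this gene, so its FPKM covers more than 1 transcript start.

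Cd44, on chromosome 2 from 102651300 to 102741822, had 69.8, 66.2 and 67.5 FPKM in Control and 59.1, 60.4 and 59.2 with PTH. The treated libraries were all lower, by a margin that is small beside the level of the gene. The mean went from 67.8 ± 1.83 to 59.6 ± 0.717 FPKM (log2 change -0.18, 95% interval -0.26 to -0.11, limma adjusted p = 0.00156). This was the smallest change of the 8, and it was -0.33 to -0.25 under the other scalings. Podoplanin and its partner CD44 were thus at 20.01 and 67.8 FPKM in Control and at 160.0 and 59.6 with PTH, and their order by level was reversed.

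Genes for proteins that bind podoplanin or CD44, or that act with them, did not all follow. Of 17 tested genes in that list 11 rose, 1 fell and 5 were not called, with a median log2 change of 0.18 against 0.15 for all entries. Among all tested entries 50.4% rose and 23.5% fell. Other scalings gave 7 to 9 that rose and 1 to 4 that fell. Has2, which encodes a hyaluronan synthase, had 14.1, 12.9 and 12.3 FPKM in Control and 80.9, 93.2 and 83.8 with PTH (log2 change 2.62, limma adjusted p = 2.21e-07). Vcan, which encodes the hyaluronan-binding proteoglycan versican, rose from 15.6 to 92.2 FPKM. These genes thus rose while Cd44 fell, but Hapln1, which encodes a hyaluronan link protein, fell from 4.84 to 2.17 FPKM. The synthase genes Has1 and Has3 were below the filter and were not tested. Has1 was at 0.127 FPKM in Control and 0.714 with PTH, and Has3 at 0.299 and 0.168. The ezrin, radixin and moesin proteins tie both membrane proteins to actin, and their genes differed from each other. Ezr fell from 5.96 to 1.48 FPKM, Msn rose from 133.2 to 180.1, and Rdx, at 43.8 and 43.4, was not called (limma adjusted p = 0.709). Ezr was the scarcest of the 3 in both groups and Msn the most abundant. Spp1, which encodes the CD44 ligand osteopontin, was not called at 5473 and 5741 FPKM, a gene whose call changes with the scaling.

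The gelsolin family and other actin cappers, the relatives of Capg, were mixed. Of 13 tested genes 8 rose, 3 fell and 2 were not called (median 0.18), while 50.4% of all tested entries rose and 23.5% fell. Other scalings gave 4 to 6 that rose and 4 to 5 that fell. Gsn, which encodes gelsolin itself, fell from 166.7 to 60.2 FPKM (log2 change -1.45, limma adjusted p = 1.04e-06), opposite to Capg. In Control Gsn was the more abundant of the pair, and with PTH Capg was. Eps8, which encodes a capping and bundling protein, rose from 2.76 to 9.77 FPKM and Svil, which encodes supervillin, from 5.61 to 13.1.

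**Figure D2:**
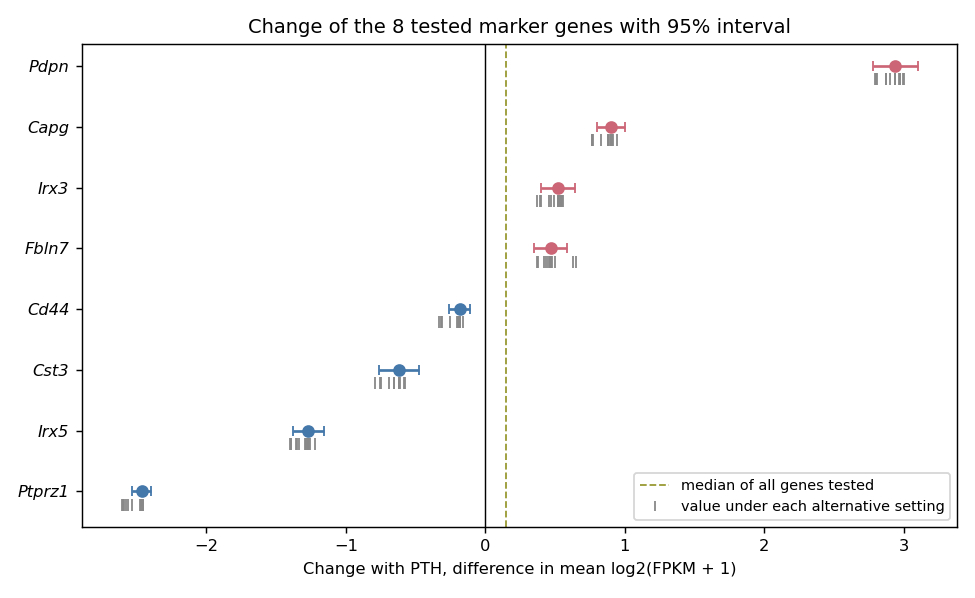
Change of each of the 8 tested marker genes with PTH (x axis, difference in mean log2(FPKM + 1)); points with bars are the estimate and its 95% interval, grey ticks the value under each alternative setting, and the dashed line the median of all tested entries (0.15). No interval or tick crosses 0, and the estimates run from -2.46 for Ptprz1 to 2.94 for Pdpn.

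The 2 Iroquois genes moved in opposite directions. Irx5 (chromosome 8, 94881695 to 94885355) had 24.1, 23.6 and 23.1 FPKM in Control and 9.49, 8.59 and 9.59 with PTH. Every PTH library was below every Control library. The mean went from 23.6 ± 0.490 to 9.22 ± 0.549 FPKM, a ratio of Control to PTH of 2.56 (log2 change -1.27, 95% interval -1.38 to -1.16, limma adjusted p = 1.02e-06).

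Irx3 (chromosome 8, 94322410 to 94325553) had 12.2, 11.0 and 12.2 FPKM in Control and 17.0, 17.0 and 18.1 with PTH. Here every PTH library was above every Control library. The mean rose from 11.8 ± 0.724 to 17.4 ± 0.601 FPKM, a ratio of 1.47 (log2 change 0.52, 95% interval 0.40 to 0.64, limma adjusted p = 0.000108). Under the other scalings the change was 0.37 to 0.45.

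The ratio of Irx5 to Irx3 within a library does not depend on how the library is scaled. It was 1.97, 2.15 and 1.89 in Control and 0.557, 0.506 and 0.531 with PTH. Irx5 was thus the more abundant of the pair in each Control library and the less abundant in each PTH library. The means were 2.00 ± 0.136 and 0.531 ± 0.0260 (SD, n = 3), a log2 difference of -1.91 (2-sided exact permutation p = 0.1, the smallest that 3 against 3 libraries can give).

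Irx3 and Irx5 lie 556141 bases apart in the same cluster. Between and around them Rpgrip1l (log2 change -0.68), Fto (-0.62) and the entry 4933436C20Rik (-0.43), whose RefSeq symbol is Crnde and which ends 1675 bases before Irx5, were lower with PTH. Beyond Irx5, Mmp2 (0.73) and Lpcat2 (0.48) were higher. Directions were mixed along the chromosome, and Irx3 stood between genes that fell. Fto, whose introns are known to hold enhancers that act on Irx3, went from 61.8 ± 1.41 to 39.8 ± 0.515 FPKM, opposite to Irx3. The third gene of the cluster, Irx6, had 0.128 and 0.149 FPKM and was not tested, and Irx1, Irx2 and Irx4, which lie outside the cluster, were below the filter as well. Irx3 and Irx5 were thus the only Iroquois genes tested here.

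**Figure D3:**
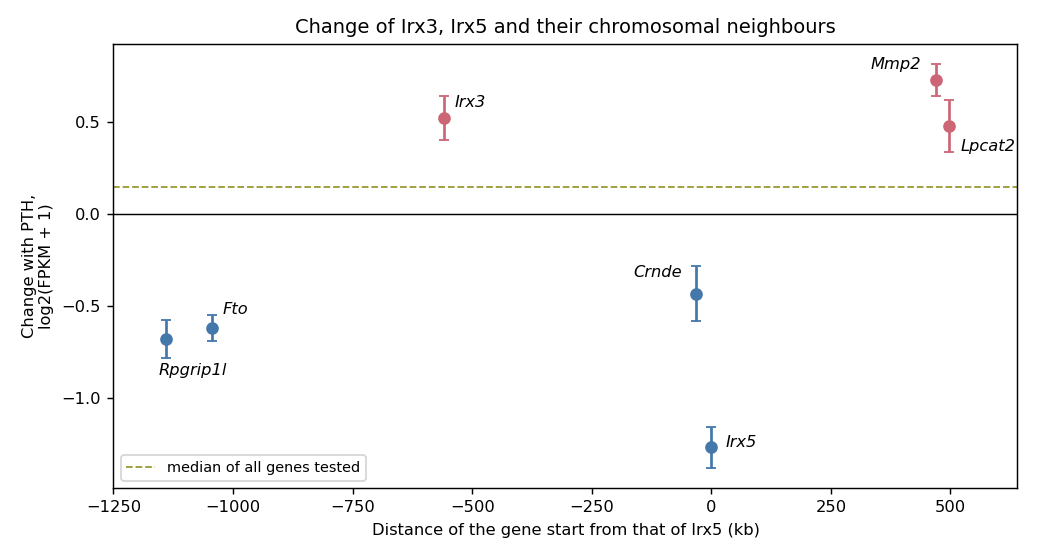
Change with PTH (y axis, difference in mean log2(FPKM + 1), with 95% interval) of the tested genes around Irx3 and Irx5 against the distance of each gene's start from that of Irx5 (x axis, kb, mm9). Irx3 (0.52) and Irx5 (-1.27) lie on opposite sides of 0, and the dashed line is the median of all tested entries.

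Ptprz1 had the largest fall of the 9 genes. Its locus on chromosome 6 runs from 22825502 to 23002916. It had 61.7, 59.9 and 60.2 FPKM in Control, and with PTH 10.4, 10.02 and 10.1. Replicates were tighter here than for any other tested marker in Control (CV 1.56%), and the groups lay far apart. The mean went from 60.6 ± 0.947 to 10.2 ± 0.170 FPKM, a ratio of Control to PTH of 5.96 (log2 change -2.46, SE 0.028, 95% interval -2.53 to -2.40, limma adjusted p = 1.20e-08).

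Among ligands, substrates and relatives of PTPRZ1, 3 of 10 tested genes rose, 5 fell and 2 were not called (median -0.22). The shares over all tested entries were 50.4% higher and 23.5% lower. With other scalings 2 genes of the list were higher and 6 lower. Ptn, which encodes its ligand pleiotrophin, had 29.0, 20.1 and 22.2 FPKM in Control and 77.2, 92.3 and 77.8 with PTH. The receptor gene was above the ligand gene in every Control library and below it in every PTH library. The change of Ptn was 1.76 (limma adjusted p = 3.77e-05). The related ligand gene Mdk, which encodes midkine, had 8.42 and 8.10 FPKM and was not called (limma adjusted p = 0.577). Ncam1, which encodes a neural cell adhesion molecule, rose from 8.04 to 31.8 FPKM. Tnc, which encodes the matrix glycoprotein tenascin C, fell from 881.4 to 384.9 FPKM, and Ptprg, the closest relative of Ptprz1, from 8.70 to 6.46.

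Npy was at the limit of detection. It is listed at 0 FPKM in all 3 Control libraries and in PTH replicates 2 and 3, and at 0.101 FPKM in PTH replicate 1, which corresponds to 1 implied fragment. The groups overlapped, and with 5 of the 6 values at 0 no test of labels could separate them. Npy lies on chromosome 6 from 49772728 to 49779504. At this depth no difference was detectable. Of 11 genes for NPY processing and its receptors, 3 were tested. Npy1r, which encodes a receptor for NPY, had 0.308, 0.438 and 0.435 FPKM in Control and 4.8, 3.35 and 3.95 with PTH (log2 change 1.84, limma adjusted p = 1.07e-05). It passed the filter through the PTH libraries alone. A receptor gene was thus detected in PTH libraries in which its ligand gene was at or next to 0. Cpe, which encodes carboxypeptidase E, fell from 92.6 to 47.0 FPKM and Pam, which encodes an amidating enzyme, from 66.2 to 62.1, while the convertase genes Pcsk1 and Pcsk2 were below 0.01 FPKM on average in both groups.

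Cst3 was the most abundant of the 9 genes in both groups. It lies on chromosome 2 from 148697468 to 148701204. It had 1159, 1036 and 1097 FPKM in Control and 709.7, 679.1 and 756.1 with PTH, so all treated libraries were lower and none overlapped. The mean went from 1097 ± 61.5 to 714.9 ± 38.7 FPKM, a ratio of Control to PTH of 1.53 (log2 change -0.62, 95% interval -0.76 to -0.47, limma adjusted p = 0.000115). Under the other scalings the change was -0.79 to -0.69.

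The list of cystatins and the cysteine proteases they inhibit was divided. Of its 10 tested genes 4 rose, among them the cystatin gene Cstb, and 6, all of them protease genes, fell (median -0.20). Over all tested entries 50.4% rose and 23.5% fell. With other scalings 3 to 4 genes of the list were higher and 6 lower. Ctsh and Ctsc, which encode the exopeptidases cathepsin H and cathepsin C, fell from 106.1 to 52.5 and from 12.5 to 6.02 FPKM. Ctsb, which encodes cathepsin B, rose from 114.0 to 194.7 FPKM. The intracellular cystatin gene Cstb was at 106.1 and 121.9 FPKM, a rise that was lost under some scalings.

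Fbln7 was the scarcest of the tested markers. It lies on chromosome 2 from 128689668 to 128722770. It had 2.23, 2.11 and 1.96 FPKM in Control and 3.23, 3.32 and 3.32 with PTH. All treated libraries were higher and they lay close together. The mean rose from 2.10 ± 0.135 to 3.29 ± 0.0479 FPKM, a ratio of 1.57 (log2 change 0.47, 95% interval 0.35 to 0.59, limma adjusted p = 0.000155). The values rest on 391 implied fragments in Control and 803 in PTH, and the authors' bounds on single libraries were 11.9% to 19.1% of the FPKM. At this level the scale of log2(FPKM + 1) understates the change.

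Other fibulin genes rose in 4 of 5 tested cases (median 0.80), also under the other scalings. In the main analysis 50.4% of all tested entries rose. Fbln2 had 23.4, 22.3 and 23.1 FPKM in Control and 375.1, 394.8 and 382.5 with PTH, the largest change of any gene in the lists linked to the 9 markers by family or partnership (log2 change 4.01, limma adjusted p = 6.36e-09). Fbln1 rose from 12.9 to 28.9 FPKM and Efemp1, which encodes fibulin 3, from 9.49 to 17.2. The exception was Fbln5, which encodes a fibulin of elastic fibres and went from 9.04 to 5.60 FPKM (log2 change -0.61, limma adjusted p = 0.0019). Fbln7 had the lowest level of the fibulin genes tested in either group.

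**Figure D4:**
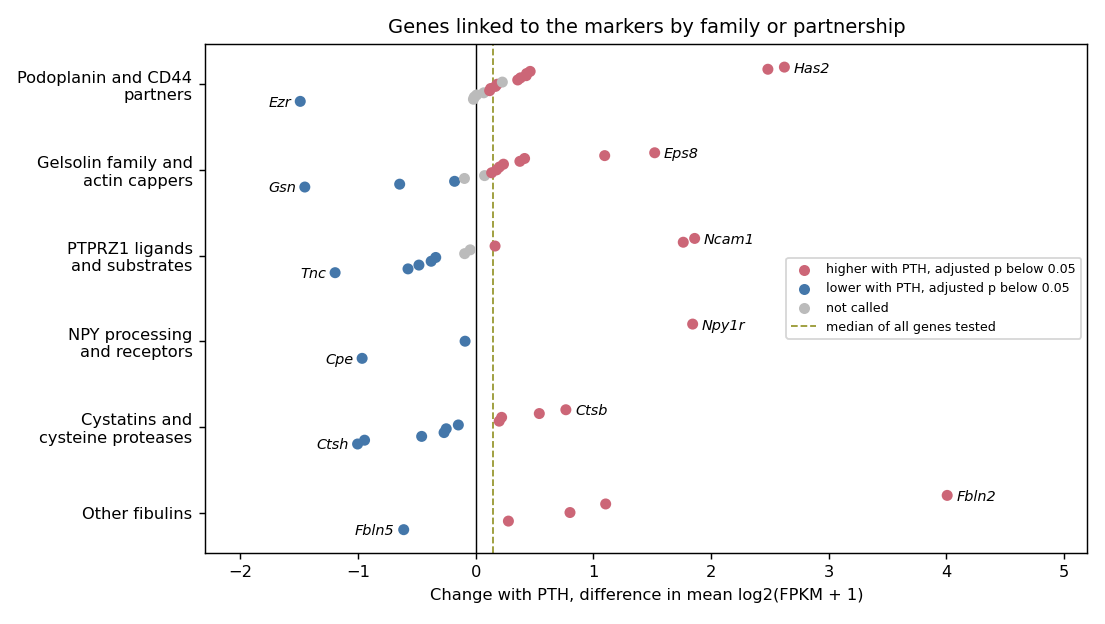
Change with PTH (x axis, difference in mean log2(FPKM + 1)) of tested genes linked to the markers by family or partnership, 1 point per gene in 6 lists; red and blue mark genes called higher and lower, grey genes not called, and the gene with the largest rise and fall in each list is named. Each list has genes on both sides of 0, and Fbln2 lies farthest to the right at 4.01.

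Set side by side, the levels of the 9 genes took another order with PTH. In Control the order by mean FPKM was Cst3, Cd44, Capg, Ptprz1, Irx5, Pdpn, Irx3, Fbln7 and Npy, and only Capg and Ptprz1 had ranges that overlapped their neighbour. With PTH it was Cst3, Pdpn, Capg, Cd44, Irx3, Ptprz1, Irx5, Fbln7 and Npy, with no overlapping neighbours among the 8 tested genes. Pdpn moved from the sixth place to the second, and Ptprz1 from the fourth to the sixth. Within groups the spread was small, with a CV of 1.56% (Ptprz1) to 8.39% (Pdpn) in Control and 1.20% (Cd44) to 5.96% (Irx5) with PTH. Control replicate 2, the library with the fewest implied fragments, was the lowest in its group for 6 of the 8 tested genes. PTH replicate 2 was also the lowest for 6 of the 8, while the fewest implied fragments in PTH were in replicate 1.

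The other markers of early and late osteocytes give the setting. Of the other early markers tested, Gja1, the connexin 43 gene, rose from 375.3 to 1141 FPKM and Mmp14, a matrix metalloproteinase gene, from 237.1 to 326.8, while Dstn, the destrin gene, fell from 207.9 to 160.3. Kera, the keratocan gene, was below the filter and was not tested, at a mean of 0.0249 FPKM in Control and 0.121 with PTH. Of 7 tested mature markers outside the 9 genes 6 fell, as did 23.5% of all tested entries, and 1, Hyou1, rose. Fgf23, at a mean of 0.00815 FPKM in Control and 0 with PTH, was below the filter and was not tested. Dmp1 went from 826.8 to 3.64 FPKM, Mepe from 207.8 to 1.61, Dkk1 from 37.1 to 0.132 and Sost from 53.3 to 0.0941. No fall among the 9 genes was that large, the largest being that of Ptprz1 at -2.46. Sost and Dkk1 count among the 6 that fell, but they passed the filter through the Control libraries alone. For genes this low with PTH the scale of log2(FPKM + 1) understates the fall.

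How many genes resembled a member depended on the measure of likeness. Likeness was measured over the 6 libraries as the Euclidean distance between log2(FPKM + 1) values centred on each gene's mean. A small distance means a similar change and similar ups and downs among replicates. Within a distance of 0.25 lay 9 other genes for Pdpn, 22 for Ptprz1 and 85 for Irx5, of 11893 compared. For Irx3, Cd44 and Fbln7 the numbers were 1837, 1990 and 2046, and Capg (395) and Cst3 (414) lay between. A fixed distance finds more genes around a small change, and around Cd44 it takes in genes that hardly changed. Counted by Pearson's r above 0.99, the order differed. There were then 1460 genes for Pdpn, 1226 for Capg, 938 for Ptprz1, 831 for Irx5 and 642 for Irx3. Fbln7, Cst3 and Cd44 had 340, 187 and 100. The nearest genes named below leave out other members, clone-named or predicted genes and small RNA genes, which the counts include. The genes nearest to Pdpn were Aldh3a1 (distance 0.076), an aldehyde dehydrogenase gene, Gzmc (0.14), a granzyme gene, and Fth1 (0.14), the ferritin heavy chain gene, whose values are uncertain because of near-identical copies. Nearest to Ptprz1 were Kctd12 (0.098), Lbh (0.11) and Klf4 (0.13), a transcription factor gene. Nearest to Irx5 were Hrasls (0.056), Uaca (0.093) and Ccdc90a (0.10). Nearest to Irx3 were Prdx3 (0.025), which encodes a mitochondrial peroxiredoxin, Pdcd5 (0.030) and Psmc4 (0.042), a proteasome subunit gene. Nearest to Capg were Rtkn (0.058), Vash2 (0.060) and Smad7 (0.060), an inhibitory Smad gene. Nearest to Cst3 were Tecr (0.054), Tbrg1 (0.063) and Aga (0.066), a lysosomal hydrolase gene. Nearest to Cd44 were Pdia3 (0.023), which encodes a disulfide isomerase, Paip2 (0.037) and Ahdc1 (0.043), and nearest to Fbln7 were Poldip3 (0.043), Eif2s1 (0.048), a translation initiation factor gene, and Dnajb6 (0.052). The points of each such comparison share the same 6 libraries, and no test was made.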

How the data were processed

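Polyadenylated RNA of IDG-SW3 wells was made into libraries with an unstranded kit, and the 6 barcoded libraries were sequenced on 1 lane. For each library the authors deposited gene FPKM values with lower and upper bounds. The submitters' processing notes name mm9, CASAVA 1.8, TopHat, Bowtie2, SAMtools and Cuffdiff, while the annotation, the strand setting and the remaining versions were not given in the sources used here. The authors also deposited a Cuffdiff table with group FPKM, fold changes, p-values and q-values, which was not used. Coordinates are mm9 as deposited, printed 1-based, with the listed start read as 0-based. No member locus overlapped another entry.

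Of 23700 entries 164 had no estimate in at least 1 library. The 11894 others with a mean FPKM of at least 1 were tested with limma 3.58.1 (R 4.3.3), a linear model with moderated variances that follow the mean, on log2(FPKM + 1), without a replicate block, and 11642 fell below the filter. Calls are at a Benjamini-Hochberg adjusted p below 0.05. The fit was tested on simulated data. Fragments were inferred from the authors' bounds, taking the half-width as 2 standard errors, and cover estimation error only. They measure the precision of an FPKM and are not counted reads. For Capg they were 1846 in PTH replicate 1 and 2991 in PTH replicate 3, at 120.1 and 119.7 FPKM. Named were the 9 members, up to 3 called genes with the largest change per list, genes named beforehand as partners or neighbours, the 3 nearest patterns per member, and Actb and Gapdh. Spp1, Hapln1, Has1, Has3, Ptprg, Cstb, Fbln5, Pcsk1, Pcsk2, Hyou1 and the cell type marker genes given with values were added after their values were seen. So was Kera. Members and lists were chosen with earlier results of these data known. Alternatives changed the pseudocount, filter, scaling, variance trend and replicates used. Promoter sequences are from RefSeq (GRCm38.p6), matched by symbol for 8 of 9 members.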

Additional observations from a re-analysis of the deposited data

How the results depend on the processing

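All 127 fits of the 8 tested members under 16 alternatives to the fit kept their direction and call, and the largest adjusted p (limma) was 0.00988, for Cd44. Fbln7 lay below a minimum mean of 5 FPKM and has no value there, so 3 members were then higher. Npy could be fitted only without the filter (log2 change 0.046, limma adjusted p = 0.382). Leaving out each library in turn gave 2.87 to 2.98 for Pdpn, 0.88 to 0.94 for Capg, -0.20 to -0.16 for Cd44, -1.29 to -1.22 for Irx5, 0.47 to 0.54 for Irx3, -2.48 to -2.45 for Ptprz1, -0.66 to -0.58 for Cst3 and 0.44 to 0.50 for Fbln7, with 4 members higher and 4 lower throughout. The log2 difference of the Irx5 to Irx3 ratio was -1.95 to -1.86 without 1 library and -1.79 when 1 was added to each FPKM, which by construction pulls ratios of low values towards 1. Of all tested entries 5991 were higher and 2793 lower in the main analysis, 4467 and 3760 with median-of-ratios scaling, 5147 and 3220 as TPM, 4612 and 3635 after quantile normalization, and 4299 and 3784 rescaled outside the 10 highest genes. Without 1 library 8089 to 8464 entries were called, 5469 to 5865 higher and 2560 to 2753 lower. The replicate numbers were not taken as pairs. Deviations of same-numbered libraries correlated at -0.058, 0.0124 and -0.0369, and those of differently numbered libraries at -0.0865 to 0.117. Such values cannot show whether the wells were paired. With the replicate number as a block 8606 entries were called against 8784, and no member's call changed. Depth limits Npy, at 1 implied fragment in all, and Fbln7, which rests on 391 in Control and 803 in PTH.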
